A study of Mus musculus with 4 samples.

Results

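The 10 BCL2 family genes Bcl2, Bcl2l1, Mcl1, Bax, Bak1, Bcl2l11, Bbc3, Pmaip1, Bid and Bad were followed in mouse primary myotubes treated with EDA-A2. They were taken by name from the 53647 genes in the count tables, 3 as survival members and 7 as death members, by their known roles and not by a threshold on their values. Myoblasts isolated from limb muscles of wild-type pups 2 to 3 days old were differentiated for 48 h, and 1 group then received recombinant EDA-A2 at 250 ng/mL for 24 h before harvest at 72 h. The other group is labelled Control, and each group held 2 libraries of polyadenylated RNA. The labels do not say whether the libraries came from separate cultures, so p-values measure only the spread between these libraries. EDA-A2 is a ligand of the tumour necrosis factor family that binds the receptor EDA2R, and the comparison asks how activating this receptor changes gene expression in muscle cells.

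BCL2 family proteins decide whether the outer membrane of the mitochondrion stays intact or becomes leaky and releases cytochrome c, which starts the caspase cascade of apoptosis. Survival members (BCL2, BCL-XL from Bcl2l1, and MCL1) hold the death members in check. The effectors BAX and BAK form the pores, and the BH3-only proteins BIM (Bcl2l11), PUMA (Bbc3), NOXA (Pmaip1), BID and BAD either occupy the groove of survival proteins or activate the effectors. Differentiated muscle fibres have many nuclei and are known to resist this form of death more than dividing myoblasts do.

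Counts on genes summed to between 29444155 and 29746863 per library. Of 15173 genes that passed the filter on low counts, the quasi-likelihood test of edgeR, with p-values adjusted by Benjamini and Hochberg's method, called 4.57% at an adjusted p under 0.05, 2.45% higher and 2.13% lower after EDA-A2. Higher genes made up 53.5% of the calls, and 71.4% when libraries were scaled to total counts. Myotube markers were abundant, and the summed level of the 8 chosen (Myh3, Myh8, Acta1, Ckm, Myog, Mymk, Tnnt3 and Ttn) was 22309 to 23392 CPM (counts scaled to a common library total) in control and 16969.3 to 16969.9 CPM after EDA-A2, with 3 of the 8 called lower. The part of this difference in the values of the BCL2 family genes was not tested. The 6 markers of myoblasts and dividing cells, Mki67 and Top2a among them, summed to 702 to 826 CPM in control and 759 to 768 CPM after EDA-A2, with none called (1 at an unadjusted p under 0.05), so the cultures also held dividing cells. Macrophage markers summed to 2.71 to 2.96 CPM in control and 3.55 to 4.304 CPM after EDA-A2, and the pan-leukocyte gene Ptprc had 0 to 2 counts per library. Of these markers 2 passed the filter, both higher after EDA-A2 without overlap and neither called. Itgam had 18 and 18 counts in control and 39 and 32 after EDA-A2 (unadjusted p = 0.0161, adjusted p = 0.168 in edgeR). Cd68 had 54 and 63 in control and 81 and 69 after EDA-A2. Markers of fibroblasts summed to 324 and 185 CPM in control and 173 and 210 CPM after EDA-A2, most of it Col1a1. Thy1 and Lum were at 0 in every library, and 0 of the 3 tested were called. An unadjusted p under 0.05 in edgeR was found for 2, Col1a1 with a negative and Dcn with a positive log2 fold change. Markers of T cells and endothelium summed to 0.940 to 1.09 CPM, with Cd8a at 0. In such bulk samples fewer cells of a type and less RNA per cell cannot be told apart.

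All members carry the BH3 core, the short helix by which the family's proteins bind each other, and its codons are shown because they are the sequence feature that joins survival and death members. The coding sequence of the canonical GENCODE transcript of each gene was searched for a leucine codon followed, after 3 codons, by a codon for glycine, alanine or serine and then an aspartate codon. Of 21423 mouse coding sequences 34.2% hold at least 1 such match, so a match alone is not specific to the family. Each member had exactly 1 match apart from Pmaip1, which had 2 in its 103 codons, the first at codons 27 to 34 in exon 2 and the second at codons 78 to 85 in exon 3. In the stretches below, each of 8 codons and read 5′ to 3′, capitals mark the leucine and the aspartate codons.
Bcl2: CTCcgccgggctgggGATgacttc
Bcl2l1: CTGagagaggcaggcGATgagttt
Mcl1: CTGcggcgcgtgggcGACggcgtg
Bax: CTCcggcgaattggaGATgaactg
Bak1: CTTgctctcatcggaGATgatatt
Bcl2l11: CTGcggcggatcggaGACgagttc
Bbc3: CTGcggcggatggcgGACgacctc
Bid: CTCgcccaaataggcGATgagatg
Bad: CTCcgaaggatgagcGATgagttt
On GRCm39 these lie, in that order, at chr1:106640308-106640331 (exon 1 of 2, minus strand), chr2:152671620-152671643 (exon 2 of 3, minus), chr3:95566747-95566770 (exon 1 of 3, plus), chr7:45115424-45115447 (exon 3 of 6, minus), chr17:27241508-27241531 (exon 4 of 6, minus), chr2:127989070-127989093 (exon 3 of 4, plus), chr7:16047698-16047721 (exon 3 of 4, plus), chr6:120874253-120874276 (exon 4 of 6, minus) and chr19:6928160-6928183 (exon 2 of 3, plus). The residue before the aspartate was encoded as glycine in all of these but Bbc3 and Bad, whose codons are gcg for alanine and agc for serine.

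Among the 10 members, Pmaip1 rose after EDA-A2 and none of the other 9 passed the test. All 10 passed the filter, with at least 307 counts in every library, so 1 of 10 was called against 4.57% of all genes tested. An unadjusted p under 0.05 was found for 2 members, Pmaip1 and Bax, beside 15.6% of all genes tested. The libraries of the 2 conditions did not overlap, with EDA-A2 higher, for Pmaip1, Bax, Bbc3 and Bcl2, and with EDA-A2 lower for Bak1. Across all genes tested the same was true of 22.8% and 22.2%, or 45.0% in either direction, beside 5 of 10 members, a share near that background. By sign alone, 5 of 7 death members and 2 of 3 survival members had a positive log2 fold change, beside 7508 of all 15173 genes tested. Their medians were 0.15 and 0.04, beside -0.00 for all genes tested. The medians of death and survival members were 0.05 and -0.06 when control replicate 1 was left out and 0.21 and 0.16 when control replicate 2 was. Leaving out EDA-A2 replicate 1 gave 0.19 and 0.05, and leaving out EDA-A2 replicate 2 gave 0.04 and 0.03, so the distance between them rests on single libraries.

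**Figure D1:**
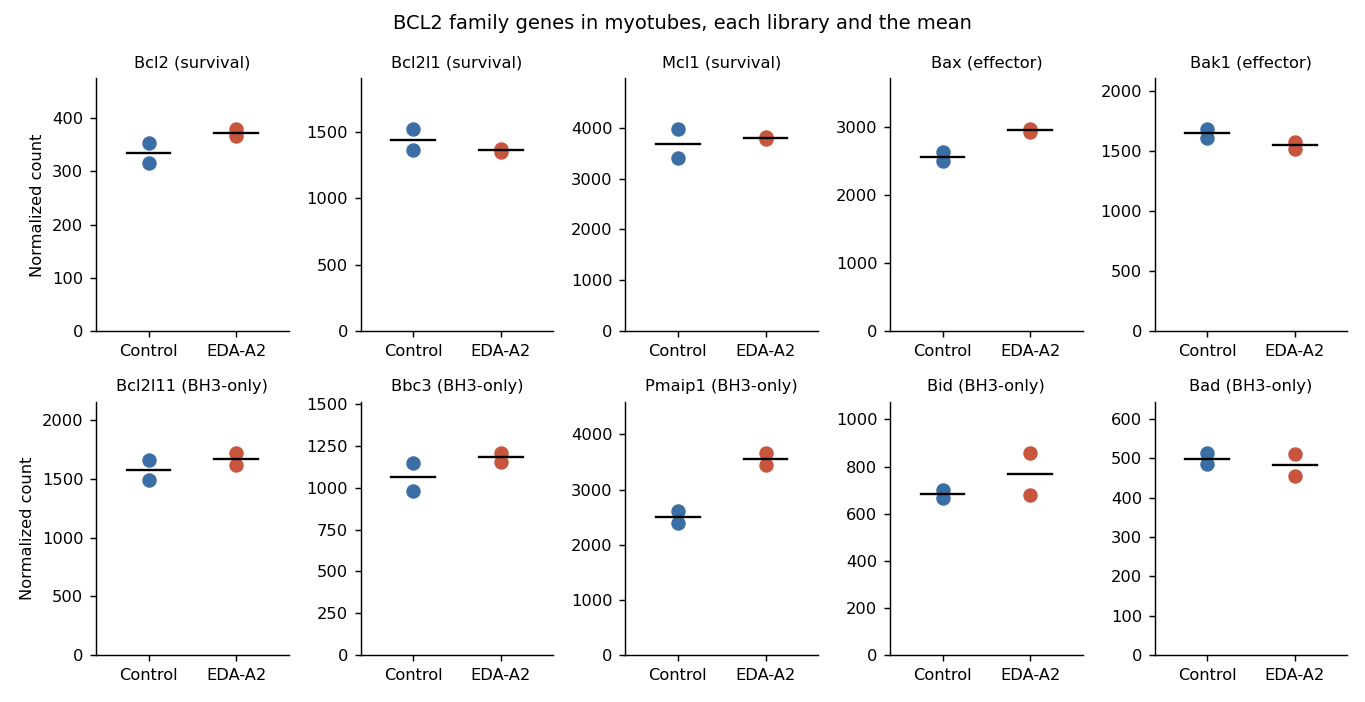
Normalized counts (vertical axes, from 0) of the 10 BCL2 family genes in control (2 libraries, blue) and after EDA-A2 (2 libraries, red), with the mean of each condition as a bar. The EDA-A2 libraries of Pmaip1, at 3450.3 and 3669, sit above its control libraries at 2395 and 2612, while those of Mcl1, Bcl2l1, Bcl2l11, Bid and Bad overlap with control.

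Pmaip1 (ENSMUSG00000024521, chromosome 18 from 66591604 to 66598636, plus strand) encodes NOXA, a BH3-only protein known for binding MCL1 and promoting its degradation. Its normalized counts, scaled to the mean library size, were 2395 and 2612 in control and reached 3450.3 and 3669 after EDA-A2. Both treated libraries lay above both controls, by more than the replicates of either condition differed from each other. The rise from 2504 ± 153 to 3559 ± 154 (SD, n = 2 libraries each) was 1.42-fold, or 0.51 on the log2 scale (95% interval 0.35 to 0.66, standard error 0.07, adjusted p = 0.000647 in edgeR). By log2 fold change it stood at rank 681 of the 15173 genes tested, and by p-value at rank 118. With each library left out in turn the value stayed between 0.45 and 0.57, but the call was lost without control replicate 1 (adjusted p = 0.285, unadjusted 0.00421 in edgeR) or control replicate 2 (0.183 and 0.00174), fits in which edgeR called 0 of all genes. It was also lost with no filter on low counts (adjusted p = 0.0747 in edgeR).

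The effectors differed in sign. Bax (ENSMUSG00000003873, chromosome 7 from 45111015 to 45116325, minus strand) had 2499.5 and 2629.9 normalized counts in control and 2932 and 2972 after EDA-A2, without overlap. Its log2 fold change of 0.20 (standard error 0.07, 95% interval 0.06 to 0.35) had an unadjusted p of 0.00991 and an adjusted p of 0.126 in edgeR, so it was not called. Over the alternatives the adjusted p of Bax in edgeR and DESeq2 ran from 0.0544, with libraries scaled to total counts, to 0.552. Bak1 (ENSMUSG00000057789, chromosome 17 from 27238784 to 27247983, minus strand), the other pore former, had 1610.4 and 1683 in control and 1519 and 1577 after EDA-A2. That is a log2 fold change of -0.09 (95% interval -0.25 to 0.07, adjusted p = 0.654 in edgeR), and the interval reaches from 0.843-fold to 1.05-fold.

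The remaining BH3-only genes were not called. Bbc3 (ENSMUSG00000002083, chromosome 7 from 16042318 to 16052130, plus strand) encodes PUMA, which binds every survival protein of the family. Its normalized counts were 979.8 and 1146 in control and 1157 and 1209.8 after EDA-A2, close to but without overlap, with a log2 fold change of 0.15 (95% interval -0.04 to 0.35, adjusted p = 0.459 in edgeR). The value was 0.05 without control replicate 1 and 0.27 without control replicate 2. Bcl2l11 (ENSMUSG00000027381, chromosome 2 from 127967958 to 128004476, plus strand), which encodes BIM, had 1495 and 1659.8 in control and 1618 and 1724 after EDA-A2. These overlapped, and the log2 fold change was 0.08 (95% interval -0.09 to 0.25, adjusted p = 0.710 in edgeR).

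Bid (ENSMUSG00000004446, chromosome 6 from 120862525 to 120894171, minus strand), which links death receptors to mitochondria once caspase 8 has cut it, had 666 and 699 normalized counts in control and 681 and 859 after EDA-A2. EDA-A2 replicate 2 alone was high, and the 2 treated libraries differed by 1.26-fold, the widest gap between replicates among the members. The log2 fold change of Bid was 0.17 (95% interval -0.06 to 0.41, adjusted p = 0.503 in edgeR) and -0.00 without that library. Bad (ENSMUSG00000024959, chromosome 19 from 6918902 to 6929280, plus strand), a protein that growth factor signalling switches off by phosphorylation, had 484 and 514 in control and 456 and 510.1 after EDA-A2. Its log2 fold change was -0.05 (95% interval -0.27 to 0.18, adjusted p = 0.896 in edgeR), and the sign turned under scaling to total counts. Exons of Bid share 31.2% of their bases with Bcl2l13 on the opposite strand, and those of Bad 20.4% with Gpr137. Those of Bad also share 25.2% with Gm56656, which the count tables do not list. Exons of Bak1 share 18.2% with Ggnbp1, also on the opposite strand, which had 5 to 10 counts per library. The libraries were made with a stranded kit, but the strand option of the counting is not given. Counts of Bid, Bad and Bak1 are uncertain if the counting ignored strand.

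Of the 3 survival genes, 0 were called by edgeR, beside 4.57% of all genes tested, and 0 by the DESeq2 Wald test. Likewise 0 of the 3 had an unadjusted p under 0.05 in edgeR, beside 15.6% of all genes tested. With only 3 genes, these counts cannot set the survival genes apart from all genes tested. Mcl1 (ENSMUSG00000038612, chromosome 3 from 95566026 to 95570487, plus strand), a short-lived protein that cells must keep making, had 3397 and 3974 normalized counts in control and 3777 and 3818 after EDA-A2. The treated libraries lay between the controls, which differed by 1.17-fold. The log2 fold change of Mcl1 was 0.04 (95% interval -0.12 to 0.21, adjusted p = 0.875 in edgeR), which leaves room for changes from 0.918-fold to 1.16-fold, and it was -0.06 without control replicate 1. Bcl2l1 (ENSMUSG00000007659, chromosome 2 from 152622582 to 152673655, minus strand), a textbook NFκB target, had 1363 and 1523 in control and 1372 and 1349 after EDA-A2. These overlapped, with a log2 fold change of -0.08 (95% interval -0.26 to 0.09, adjusted p = 0.707 in edgeR). The interval of Bcl2l1 ends at 1.06-fold. Bcl2 (ENSMUSG00000057329, chromosome 1 from 106465908 to 106642060, minus strand), which gave the family its name, had the fewest counts of the survival genes, with 316 and 354 in control and 366 and 379 after EDA-A2. Those do not overlap, and the log2 fold change of 0.15 (95% interval -0.09 to 0.40, adjusted p = 0.614 in edgeR) was not called. Counts per gene do not separate the long and short splice forms of Bcl2l1 and Mcl1, whose proteins act in opposite directions.

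**Figure D2:**
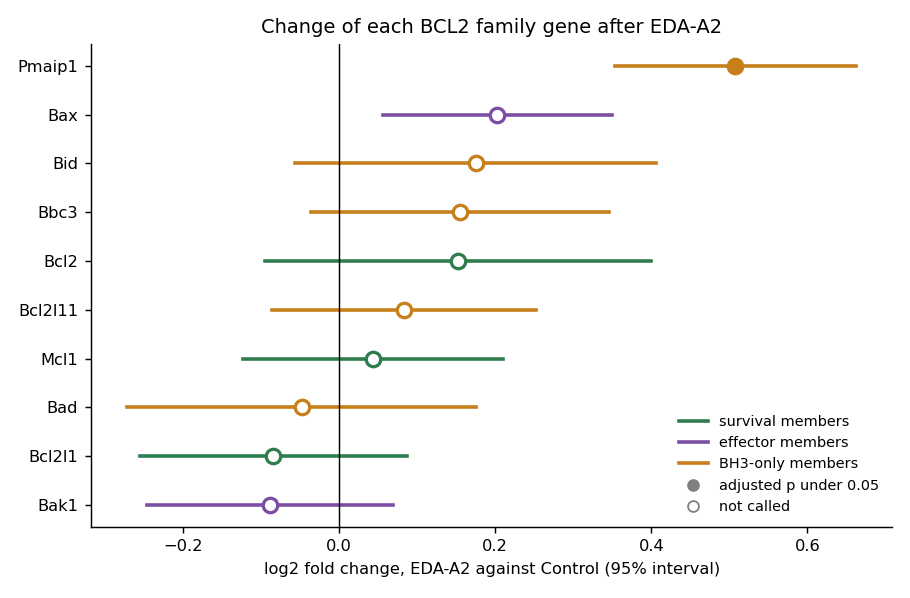
Log2 fold change of each BCL2 family gene, EDA-A2 against control (horizontal axis), with its 95% interval from the edgeR fit, coloured by role and filled where the adjusted p was under 0.05. Pmaip1, at 0.51 with an interval of 0.35 to 0.66, is the only filled point, the interval of Bax (0.06 to 0.35) also lies above 0, and the other 8 intervals cross 0.

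To compare levels between genes, CPM values were divided by the length of all exons of a gene merged, in kilobases. On this scale the control levels ran, from high to low, Bax 46.7 ± 1.68, Mcl1 35.7 ± 3.95, Pmaip1 31.0 ± 1.89, Bak1 23.1 ± 0.721, Bcl2l1 9.49 ± 0.742, Bbc3 7.49 ± 0.826, Bcl2l11 5.27 ± 0.389, Bad 3.76 ± 0.160, Bid 2.35 ± 0.0810 and Bcl2 1.23 ± 0.0976 CPM per kilobase (SD, n = 2). Control libraries of neighbours in this order did not overlap. With the longest transcript as the length, those of Bcl2l1 (13.9 ± 1.09) and Bbc3 (13.4 ± 1.47) did. Mcl1 was thus the most abundant survival transcript and Bcl2 the least abundant member by either length. After EDA-A2 the level of Pmaip1, at 42.7 and 45.4 CPM per kilobase, lay above that of Mcl1, at 36.5 and 36.9, whereas in control it lay below, at 29.6 and 32.3 beside 32.9 and 38.5. For Pmaip1 (2732 bases) and Mcl1 (3491 bases) the merged exons and the longest transcript are equally long. The second length is thus no further check of their order, which depends on these lengths.

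**Figure D3:**
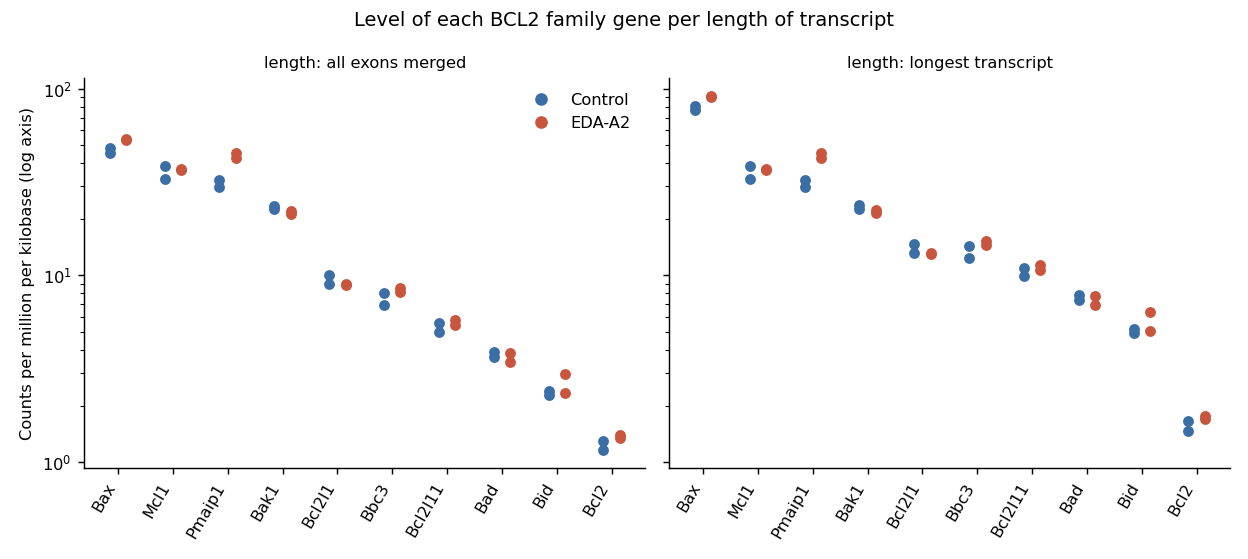
CPM per kilobase of exon (vertical axis, log scale) of each BCL2 family gene in the control (blue) and EDA-A2 (red) libraries, with length taken as all exons merged (left) or the longest transcript (right). Bax, Mcl1, Pmaip1 and Bak1 form the upper end in each panel and Bcl2 the lower, and Pmaip1 passes Mcl1 in the EDA-A2 libraries.

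Survival and death members were also set against each other within each library, as ratios of levels per kilobase. These ratios are given without a test, and an exact permutation test of 2 libraries against 2 cannot go below a two-sided p of 0.333. The ratio of Pmaip1 to Mcl1, a binding pair at the protein level, was 0.901 and 0.840 in control and 1.17 and 1.23 after EDA-A2, 37.6% higher on the mean and without overlap. The ratio of Bax to Bcl2 was 39.2 and 36.9 in control and 39.8 and 38.9 after EDA-A2, which overlap, a difference of 3.39% in the mean. Summed over the 7 death members and divided by the sum of the 3 survival members, the ratio was 2.69 and 2.49 in control and 2.91 and 3.02 after EDA-A2, 14.8% higher on the mean. Without Pmaip1 in the sum, a calculation added after its value was seen, it was 2.00 and 1.84 in control and 2.00 and 2.06 after EDA-A2, 6.01% higher.

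**Figure D4:**
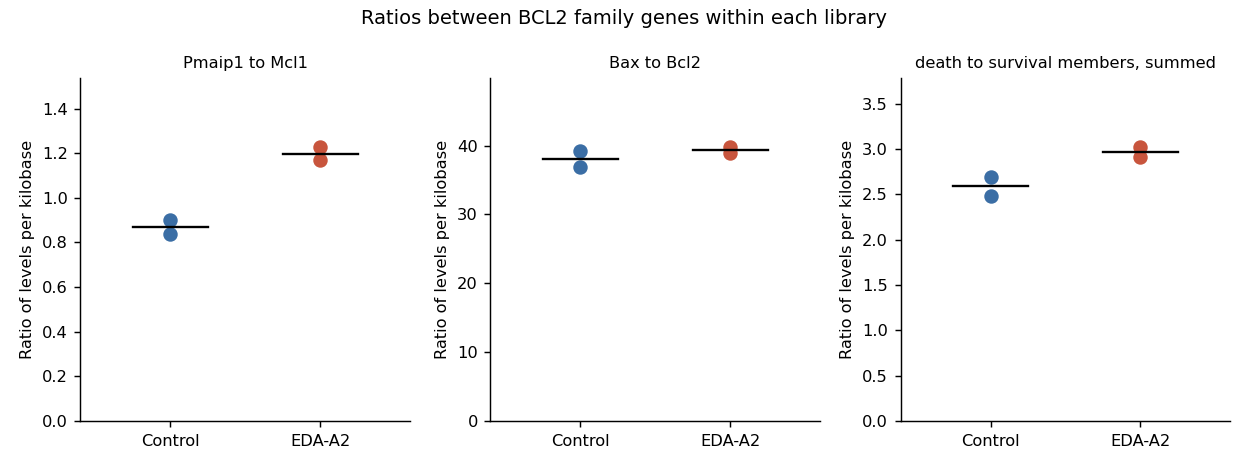
Ratios of levels per kilobase within each library (vertical axes, from 0) in control (blue) and after EDA-A2 (red), with means as bars. Pmaip1 to Mcl1 goes from a mean of 0.870 to 1.20 and the summed ratio of death to survival members from 2.59 to 2.97 without overlap, while Bax to Bcl2 overlaps at 38.1 and 39.3.

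Promoters were examined because 3 of the death genes, Bax, Bbc3 and Pmaip1, are textbook targets of the transcription factor p53, and NFκB is the pathway EDA2R is known for. The 250 bases before the start of the canonical transcript were searched on both strands of GRCm39 in 21613 protein-coding genes. For p53 a single decamer was searched, which is a part of its full recognition element. A match to this decamer was found in 3 of the 10 members, Bax, Bbc3 and Pmaip1, beside 6.69% of all promoters. It begins at -198 in Bax, at -43 in Bbc3 and at -103 in Pmaip1, counted back from the transcript start. The κB motif was found in 0 of 10 members and 4.22% of all promoters, TGANTCA (AP-1) in 0 and 6.19%, TGACGTCA (cyclic AMP response element) in 0 and 1.69%, and TATAAA in 0 and 12.0%. The FoxO motif GTAAACA was found in 2 members, Bak1 and Bcl2l11, and 2.72% of all, and GGGCGG (GC box) in 8 members and 36.4% of all. No motif overlapped another in the capitals below. A match describes the letters in this window and not binding of the factor. The motifs were also chosen with earlier results of these data known.

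The Bax and Bbc3 windows are printed 5′ to 3′ on the strand of the gene, with the p53 decamer in capitals, at chr7:45116326-45116575 (minus strand) and chr7:16042421-16042670 (plus strand) of GRCm39.
Bax: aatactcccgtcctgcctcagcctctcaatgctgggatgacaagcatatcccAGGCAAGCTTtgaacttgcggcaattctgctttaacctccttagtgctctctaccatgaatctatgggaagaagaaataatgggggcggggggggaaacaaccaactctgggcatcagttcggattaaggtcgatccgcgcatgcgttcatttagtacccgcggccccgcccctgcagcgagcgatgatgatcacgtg
Bbc3: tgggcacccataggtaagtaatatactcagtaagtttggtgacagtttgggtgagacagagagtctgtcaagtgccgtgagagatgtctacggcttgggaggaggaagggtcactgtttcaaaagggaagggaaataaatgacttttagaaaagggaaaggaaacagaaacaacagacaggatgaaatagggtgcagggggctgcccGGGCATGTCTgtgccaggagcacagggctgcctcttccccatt
Of these 3 genes Pmaip1 was called, and the log2 fold changes of Bax and Bbc3 were 0.20 and 0.15.

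Among 20 known regulators of the members, 19 were tested, 8 with a positive and 11 with a negative log2 fold change and a median of -0.04. Trp53 was the 1 call, beside 4.57% of all genes tested. An unadjusted p under 0.05 in edgeR was found for 6 of the 19, 3 in each direction, beside 15.6% of all genes tested. Trp53, which encodes p53, rose from 1015 and 1052 normalized counts in control to 1504 and 1465 after EDA-A2, or 0.52 on the log2 scale (95% interval 0.36 to 0.69, standard error 0.08, adjusted p = 0.000867 in edgeR). As with Pmaip1, the call was lost with no filter (adjusted p = 0.0574 in edgeR), without control replicate 1 (0.270) and without control replicate 2 (0.183). Values for Foxo1 and Foxo3, transcription factors that act on Bcl2l11, were 0.15 and -0.04. Those for Huwe1 and Usp9x, which add and remove ubiquitin on MCL1, were -0.05 and 0.07. Fbxw7, another listed regulator, had -0.20 (unadjusted p = 0.0219, adjusted p = 0.204 in edgeR), its libraries lower after EDA-A2 without overlap. None of these genes was called. The NFκB subunit gene Rela had a log2 fold change of 0.30 with an adjusted p of 0.0570 in edgeR.

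The 13 p53 target genes outside the family were listed with earlier results of these data known, and all were tested. Of these, 11 had a positive and 2 a negative log2 fold change, beside 7508 positive and 7665 negative among all genes tested. The median of the list was 0.15. An unadjusted p under 0.05 was found for 7, beside 15.6% of all genes tested, of which Eda2r, Ccng1, Mdm2, Sesn2 and Perp had positive values and the stress response genes Sesn1 and Gadd45a negative ones, -0.20 and -0.19. Libraries did not overlap for 8 with EDA-A2 higher and 2 with EDA-A2 lower, beside 22.8% and 22.2% of all genes. The 1 call in this list, beside 4.57% of all genes tested, was Eda2r, the gene of the receptor for EDA-A2 and itself a p53 target. Eda2r rose from 7024 and 7685 normalized counts to 8732 and 9951 (log2 fold change 0.35 with a 95% interval of 0.18 to 0.51, adjusted p = 0.0178 in edgeR). Without EDA-A2 replicate 2 its adjusted p was 0.300, without control replicate 1 it was 0.371, without control replicate 2 it was 0.249, and with no filter it was 0.261. Mdm2 and Ccng1 had log2 fold changes of 0.21 and 0.36 with adjusted p-values of 0.128 and 0.0734 in edgeR. The cell cycle inhibitor Cdkn1a, the most abundant of the list, had 37230.2 and 39607 normalized counts in control and 38180.3 and 38833 after EDA-A2, a log2 fold change of 0.00 (95% interval -0.14 to 0.15).

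Downstream of the mitochondrion, 16 genes of cytochrome c release and caspase control were tested, their median value being 0.03, and 2 were called, beside 4.57% of all genes. Birc3, a caspase and NFκB pathway ubiquitin ligase, rose and Cycs, the gene of cytochrome c itself, fell. Birc3 had 4 and 3 counts in control and 69 and 54 after EDA-A2, or 4.03 on the log2 scale (95% interval 3.11 to 4.96, adjusted p = 5.29e-05 in edgeR). Birc3 passed the filter only through its EDA-A2 libraries, and requiring at least 10 counts in every library removed it from the test. The size of its change rests on the few control counts. Over the alternatives its adjusted p reached 0.256, with the call lost without either control library. Cycs had 4886 and 4929 normalized counts in control and 3844 and 4281 after EDA-A2, or -0.27 on the log2 scale (95% interval -0.42 to -0.12, adjusted p = 0.0412 in edgeR). Its adjusted p ran from 0.0110 to 0.615 over the alternatives, with the call lost under scaling to total counts (0.107), with no filter (0.279) and without any single library, and reads of its many pseudogenes make its count uncertain. Apaf1, the scaffold that cytochrome c activates, had a log2 fold change of 0.08 and the caspase inhibitor Xiap 0.02, neither of them called.

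The other genes of the wider family were not called. Of 16 listed, 9 passed the filter, with 5 positive and 4 negative log2 fold changes. Among these, 0 were called by edgeR, beside 4.57% of all genes tested, and 0 by DESeq2. In edgeR 2 genes had an unadjusted p under 0.05, beside 15.6% of all genes tested. These were Bcl2l2, which encodes the survival protein BCL-W and had 1752 and 1583 normalized counts in control and 1397 and 1429 after EDA-A2 (log2 fold change -0.24, adjusted p = 0.112 in edgeR), and Bcl2l12, with 177 and 183 against 252 and 231 (0.42, adjusted p = 0.112 in edgeR). Log2 fold changes were -0.23 for Bok, an effector relative of BAX, 0.02 for Bmf, 0.05 for Bcl2l13, -0.05 for Bnip3 and -0.02 for Bnip3l, the last pair known for marking mitochondria for autophagy. Bnip3 was by far the most abundant, at 43957 to 49778 normalized counts. Bik and Bcl2l15, with 14 to 52 counts per library, had 0.64 (95% interval -0.15 to 1.44) and 0.47 (-0.25 to 1.18). The value of Bcl2l15 ran from 0.02 to 0.81 with a library left out, the lowest without EDA-A2 replicate 1, which held 52 counts beside 30 in the other treated library.

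The 4 mouse copies of A1, Bcl2a1a, Bcl2a1b, Bcl2a1c and Bcl2a1d, which are known NFκB-induced survival genes of blood cells, had 0 counts in every library, which allows up to 3 counts or 0.101 to 0.102 CPM. Their near-identical sequences also lose reads that map to several copies. Bcl2l10 and Hrk had 0 to 5 counts. Bcl2l14, a relative with a BH3-like region, had 0 counts in both control libraries and 15 and 7 after EDA-A2. The mean of the treated libraries was 3.67-fold the floor of 3 counts per library, without allowance for error in the treated counts. Bcl2l14 did not pass the filter, and in the edgeR fit without a filter its adjusted p was 0.237 (unadjusted 0.00544).

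**Figure D5:**
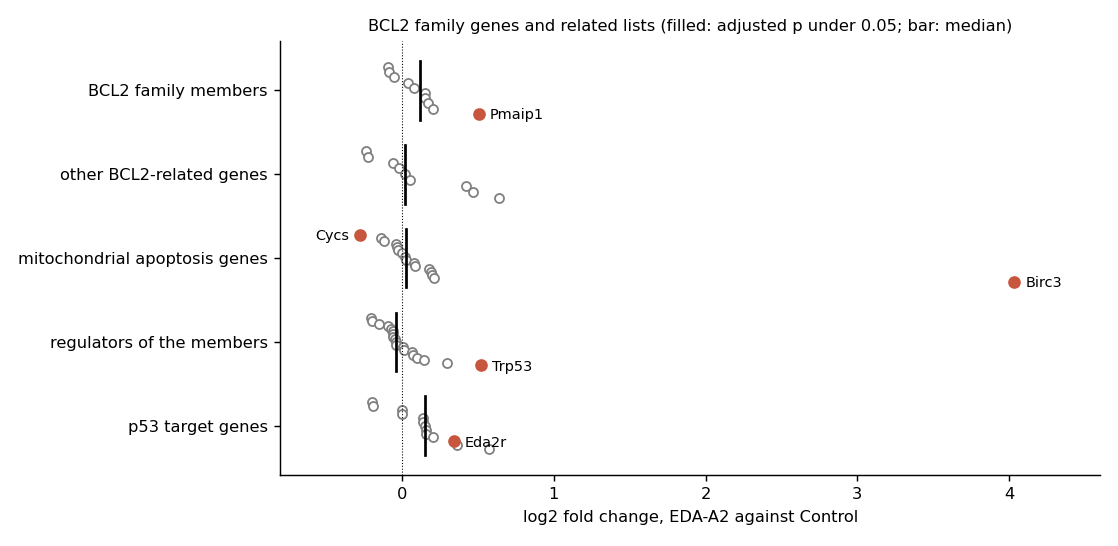
Log2 fold changes (horizontal axis) of the BCL2 family members and of the genes tested in 4 related lists, with called genes filled and named and the median of each list as a bar. The filled points are Pmaip1, Birc3, Cycs, Trp53 and Eda2r, with none among the other BCL2-related genes, and the medians lie between -0.04 and 0.15.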

How the data were processed

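The data were 4 bulk RNA-seq libraries of mouse myotubes, 2 per condition. Per the labels and the study's methods, the authors checked reads with FastQC 0.11.9 and MultiQC 1.12, trimmed them with Trim Galore 0.6.5, mapped them to GRCm39 with STAR 2.7.3a and counted read pairs per Ensembl gene with HTSeq 0.11.1. The deposited values are raw counts. The study's methods name a stranded mRNA kit (Illumina TruSeq) for the libraries. The annotation release and HTSeq's strand option are not given in the sources used here. HTSeq's summary lines (6.68% to 7.40% of pairs outside genes, 0.946% to 0.986% ambiguous and 4.56% to 4.76% not uniquely mapped) stayed out of all totals. Symbols, lengths and positions came from GENCODE vM39, which matched 52610 of 53647 genes and all 105 symbols listed.

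Counts were fitted in R 4.3.3 with edgeR 4.0.16 (TMM, filterByExpr at min.count 10 and min.total.count 15, glmQLFit and glmQLFTest, condition as the only term), with Benjamini-Hochberg adjustment over all genes tested and a threshold of 0.05. Each standard error was derived from the F statistic, as the absolute log2 fold change over its root, and 95% intervals use the t distribution with the fit's degrees of freedom. DESeq2 1.42.0 was an alternative, beside other scalings and filters, a replicate block, protein-coding genes only and leaving out each library. The steps were tested on simulated counts. The chi-square per gene was 6.88 between control libraries, 3.48 between EDA-A2 libraries and 10.8 to 14.6 between conditions, so no library was counted as a copy of another. The floor of 3 counts reflects counting error alone, because read pairs lacked molecular identifiers and may repeat a molecule.

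The members, lists, motifs and tests were chosen with earlier results of these data known. Named were all members, all other BCL2-related genes, the called genes of each further list and the 3 genes nearest to the member with the smallest p. Other genes named from these lists (Foxo1, Foxo3, Huwe1, Usp9x, Fbxw7, Rela, Mdm2, Ccng1, Cdkn1a, Sesn1, Sesn2, Gadd45a, Perp, Apaf1 and Xiap) were chosen after their values were seen. Of Ddit3, which has 2 gene identifiers, the longer gene was used.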

Additional observations from a re-analysis of the deposited data

How the results depend on the processing

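Over the alternatives, 244 of 274 values for the members, the other BCL2-related genes and the called genes of the related lists kept their direction and their side of the threshold, 18 lost a call and 0 gained one. The count over all genes, 694, was 86 with no filter and 0 to 402 with a library left out. It was 0 without either control replicate, where 2179 and 2448 genes had an unadjusted p under 0.05 in edgeR, the lone control being assumed to vary like the EDA-A2 pair, and the cause was not tested. Called members, and called death members, numbered 1 as reported, 0 with no filter and 0 to 1 with a library left out, and 4 calls in the related lists became 1 with no filter and 0 to 4 with a library left out. A replicate block called 1066 genes, Pmaip1 the only member among them (log2 fold change 0.51), and 6 genes of the related lists. The labels do not say whether same-numbered libraries were paired. Replicate 1 minus replicate 2 of control and of EDA-A2, in log2 CPM, correlated at 0.0598 over the 15173 genes tested. This is a single comparison of 2 pairs of libraries, too few to settle whether they were paired.

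Signs turned under total counts for Bad (0.0060), Bnip3 (0.00042) and Bnip3l (0.036). With a library left out, log2 fold changes ran across 0 for Mcl1 (-0.064 to 0.16), Bid (-0.0035 to 0.33), Bad (-0.13 to 0.032), Bmf (-0.092 to 0.13), Bcl2l13 (-0.0060 to 0.11), Bnip3 (-0.13 to 0.022) and Bnip3l (-0.087 to 0.054), none of them called. With the longest transcript as length, Bax to Bcl2 was 50.5 in control and 52.2 after EDA-A2, and the summed ratio 3.32 and 3.79. Without Pmaip1, an alternative chosen after seeing the data, the summed ratio was 1.92 and 2.03. With a library left out, Bax to Bcl2 ran from 36.9 to 39.2 in control and 38.9 to 39.8 after EDA-A2, Pmaip1 to Mcl1 from 0.840 to 0.901 and 1.17 to 1.23, and the summed ratio from 2.49 to 2.69 and 2.91 to 3.02.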

Other observations

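The genes whose profile over the 4 libraries lay nearest to that of Pmaip1, by the Euclidean distance of log2 CPM centred on the mean of the libraries among 15168 genes with a count in every library, were Psme2, Snx16 and Ifit1. Psme2, a subunit of the interferon-induced proteasome activator, had 624 and 657 normalized counts in control and 890.01 and 941 after EDA-A2 (log2 fold change 0.51, adjusted p = 0.00278 in edgeR). Snx16, a sorting nexin, had 253 and 268 in control and 353 and 385 after EDA-A2, and Ifit1, an interferon-induced antiviral gene, had 276 and 293 in control and 402 and 427 after EDA-A2. Likeness over 4 libraries rests on few points.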
